A study of Danio rerio with 4 samples.

Results

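Interferon-response and antigen-presentation genes were followed in zebrafish larvae that carry the hi272 allele of uhrf1 and in their normal-looking siblings. The genes were looked up by symbol without regard to case. Of 10 symbols 8 are described here, mxc, isg15, b2m, parp14rs1, irf1b, trim25, irf7 and ifih1, among 31953 gene rows in all. The members were proposed with earlier results of these data in view.

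Per the labels, each library came from a pool of 10 to 20 whole fish from 2 clutches, anaesthetised and collected at 120 hpf (hours after fertilisation). Mutants have the genotype uhrf1(hi272) and were sorted from their siblings by appearance. The siblings were phenotypically normal and their own genotypes are not given. Each group had 2 libraries of ribosome-depleted total RNA, and Uhrf1 is the chromatin protein that recruits the maintenance DNA methyltransferase to newly copied DNA.

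Cells sense foreign or misplaced nucleic acid through receptors such as Ifih1 (MDA5), which recognises double-stranded RNA. Signalling through the kinase Tbk1 and the factor Irf7 induces interferons, and secreted interferon acts on receptors that signal through Jak kinases and Stat factors such as Stat2. The interferon-stimulated genes that follow include Mx GTPases, the ubiquitin-like modifier Isg15, Parp14 family enzymes and the machinery that loads peptides on class I molecules, whose light chain is B2m. In zebrafish larvae these genes are known as a rapid response to viral infection.

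The libraries held 564941 to 812167 gene reads, which is shallow. The reads of the mutated gene did not check the labels, since UHRF1 had 7 and 9 mutant reads against 2 and 17 sibling reads. The sibling libraries went against the label of entire larvae. Of 7 lens genes found, all 7 had no read in either sibling library, against 510 and 679 reads together in the mutants. Hepatocyte genes made up 14.8% and 12.6% of sibling gene reads against 0.180% and 0.141% in mutants, and skeletal muscle genes took 0.0290% and 0.0129% in the siblings and 5.81% and 5.28% in the mutants. The sibling libraries also differed in exocrine pancreas genes, at 0.0597% of gene reads in replicate 1 and 15.6% in replicate 2. Genotype and tissue makeup therefore coincide, and every difference below is a difference between these libraries that cannot be told apart from a difference in the tissues they hold. Fewer cells of a type and less RNA per cell cannot be told apart either.

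**Figure D1:**
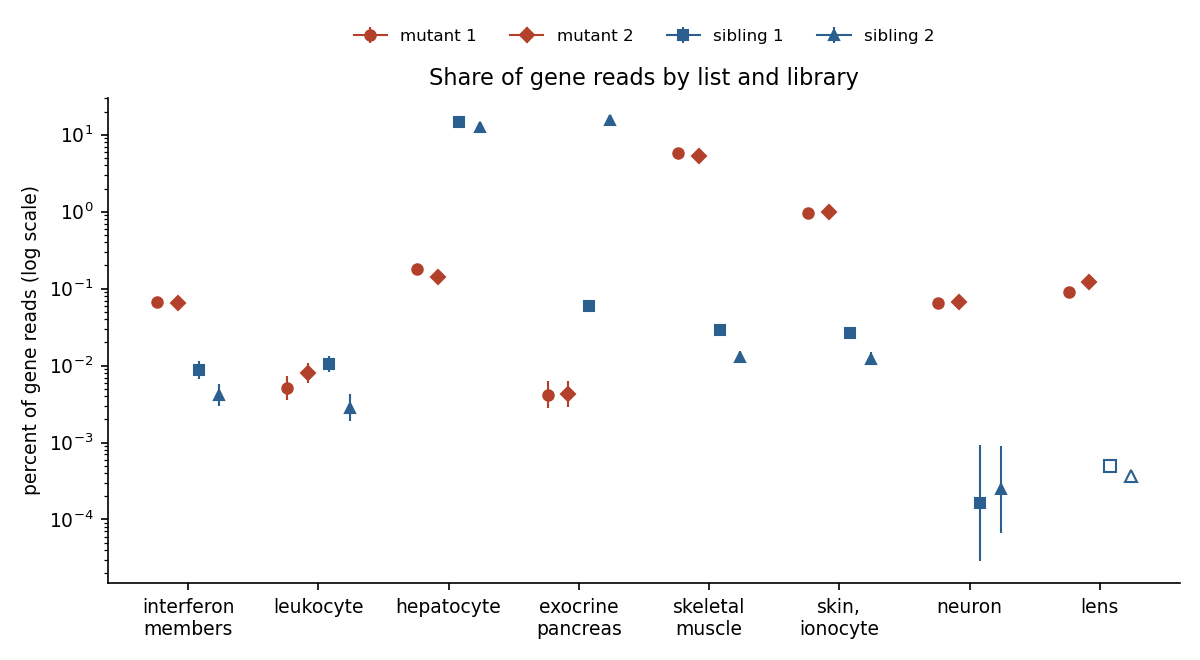
Percent of gene reads (log scale) taken by the 8 members together and by 7 lists of cell type markers in each library. Filled symbols are shares with their Wilson 95% intervals, most of them smaller than the symbol, and open symbols mark the limit that a count of 0 allows (3 counts). The members sit at 0.0680% and 0.0644% in the mutants and at 0.00880% and 0.00419% in the siblings, while the leukocyte shares of the groups overlap. With the similar denominator of the summed reads of the tested genes, most genes stood higher in the mutants. The median log2 fold change over all tested genes was then 2.17.

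Summed over the 8 members, mutant libraries gave 389 and 364 reads, and sibling libraries gave 54 and 34. As shares of all gene reads, the mutants stood at 0.0680% (Wilson 95% bounds 0.0616% to 0.0751%) and 0.0644% (0.0581% to 0.0714%). The siblings stood at 0.00880% (0.00675% to 0.0115%) and 0.00419% (0.00300% to 0.00585%). The groups did not overlap. With the summed reads of the tested genes as the denominator (total-count scaling), 68.7% of all tested genes were called higher in the mutants (edgeR, Benjamini-Hochberg adjusted p under 0.05). The median log2 fold change of all tested genes was then 2.17, and that of the 7 tested members was 4.35. The sum is weighted by irf1b, which gave 183 and 145 of the mutant reads and 24 and 15 of the sibling reads.

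In the edgeR quasi-likelihood test with Benjamini-Hochberg adjustment over all 8133 genes tested, 6 members rose and 1 fell, and IFIH1 did not pass the count filter. Of all tested genes 35.2% were called higher and 25.9% lower, so calls in either direction were common. Both mutant libraries lay above both sibling libraries in 6 tested members and below them in 1, where 48.9% and 32.0% of all tested genes did so. The median log2 fold change of the 7 tested members was 2.68, or 2.53 with the genes at 0 in the siblings set to their lower bound, and that of all tested genes was 0.48. Genes with no or few sibling reads can pass the filter only through the mutants. Among the members called higher this holds for mxc, isg15, b2m, parp14rs1 and IRF7, and not for irf1b. Without that filter 6 of the 8 members were higher and 0 lower, against 6.45% and 6.13% of the 23859 genes with a read, and the medians were 2.67 and 1.07. Of those 23859 genes only 8133 had passed the filter, against 7 of the 8 members. The shares without the filter therefore compare members with genes that mostly had fewer reads. Levels below are CPM, counts per 1000000 TMM-scaled reads of the tested genes in a library, and fold changes are mutant over sibling.

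**Figure D2:**
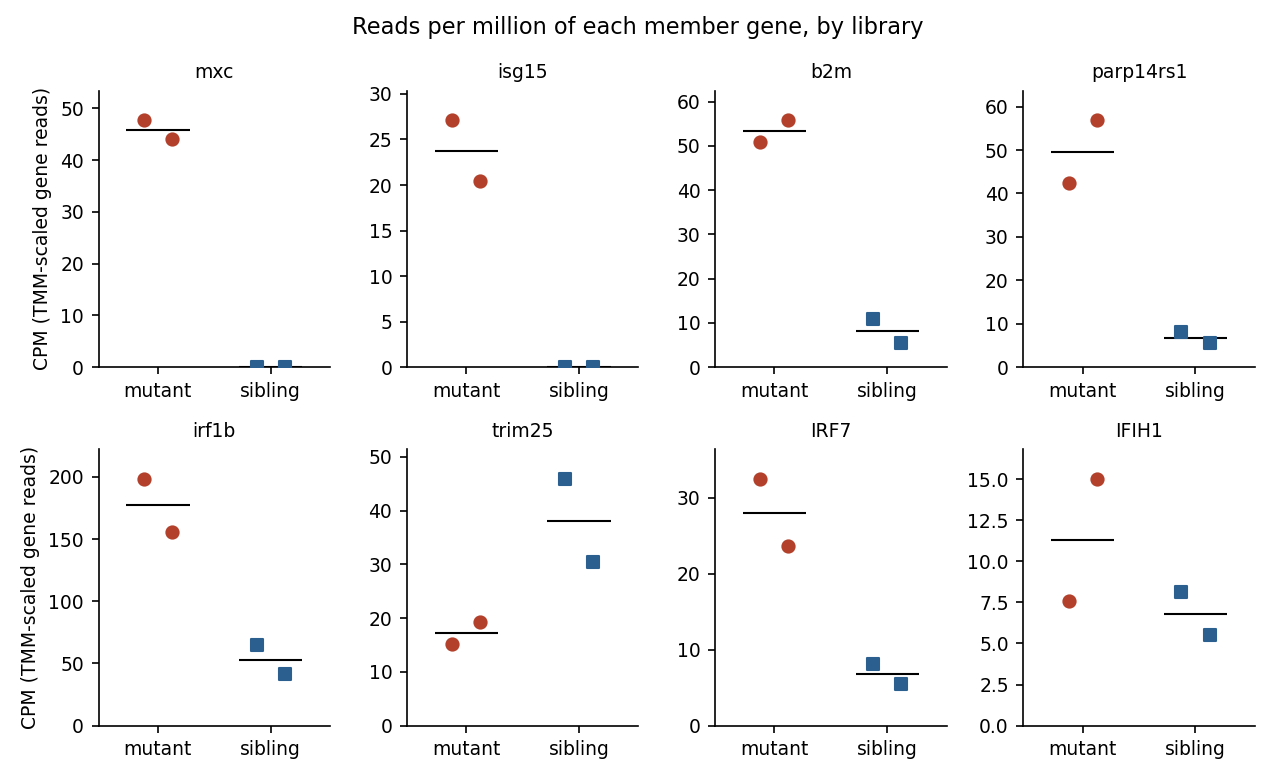
CPM of each of the 8 members, with 1 point per library and a line at the mean of each group (n = 2). The mutant points lie above the sibling points for mxc, isg15, b2m, parp14rs1, irf1b and IRF7, below them for trim25, and among them for IFIH1.

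Among the effectors, mxc (ENSDARG00000024789) encodes an Mx protein, a dynamin-like GTPase of the antiviral response. It had 44 and 41 mutant reads and none in either sibling library, or 47.7 and 44.0 CPM against 0. Both mutant libraries were alike and the groups did not overlap. A count of 0 allowed up to 8.11 and 8.28 CPM in the sibling libraries, and against 3 counts over the sibling group mxc was at least 11.2-fold higher (edgeR, Benjamini-Hochberg adjusted p = 7.26e-05). Without mutant replicate 1 the adjusted p was 0.0593. The related Mx genes were too sparse to test, and reads of near-identical copies could have been split among them. For example, mxe had 8 and 10 mutant reads against 2 and 0 sibling reads, and mxa had 5 and 3 against 0 and 0.

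The modifier isg15 (ENSDARG00000086374), which is conjugated to proteins during the interferon response, had 25 and 19 mutant reads and no sibling read. Its mutant levels were 27.1 and 20.4 CPM, and it was at least 5.79-fold higher (edgeR, Benjamini-Hochberg adjusted p = 0.000834). The groups did not overlap, and leaving out mutant replicate 1 or 2 gave an adjusted p of 0.132 or 0.0636. The activating enzyme of the Isg15 pathway in mammals, uba7, had 20 and 29 mutant reads and 0 sibling reads and was at least 6.45-fold higher (edgeR, Benjamini-Hochberg adjusted p = 0.000692). Without mutant replicate 1 or 2 its adjusted p was 0.0844 or 0.0932.

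The gene parp14rs1 (ENSDARG00000040445) belongs to the Parp14 family, whose mammalian member adds ADP-ribose to proteins. It had 39 and 53 mutant reads against 3 and 2 sibling reads. The levels were 42.3 and 56.9 CPM against 8.11 and 5.52 CPM, so the sibling libraries were low and the groups did not overlap. It rose by 2.83 ± 0.53 in log2 units (± standard error, n = 2 libraries per group; edgeR, Benjamini-Hochberg adjusted p = 0.000523). With any single library left out its log2 fold change lay between 2.62 and 3.16 and its adjusted p was at most 0.0463, where a group of 1 library is assumed to vary like the other group.

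The class I light chain b2m (ENSDARG00000053136) had 47 and 52 mutant reads against 4 and 2 sibling reads. Its levels were 51.0 and 55.8 CPM against 10.8 and 5.52 CPM, and the groups did not overlap. It rose by 2.68 ± 0.49 in log2 units (edgeR, Benjamini-Hochberg adjusted p = 0.000479), and without mutant replicate 1 the adjusted p was 0.0567. The related gene b2ml had 187 and 232 mutant reads against 61 and 53 sibling reads, and its log2 fold change of 0.54 ± 0.31 did not pass (edgeR, Benjamini-Hochberg adjusted p = 0.143). Whether both genes differ in their change was not tested.

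Of the transcription factors, irf1b (ENSDARG00000043249), a zebrafish homologue of the interferon regulatory factor Irf1, had 183 and 145 mutant reads against 24 and 15 sibling reads. These are 199 and 156 CPM against 64.9 and 41.4 CPM, with no overlap. It rose by 1.73 ± 0.36 in log2 units (edgeR, Benjamini-Hochberg adjusted p = 0.00116), or 3.32-fold. Without mutant replicate 1 its adjusted p was 0.0906. IRF7 (ENSDARG00000045661), the factor that amplifies interferon transcription, had 30 and 22 mutant reads against 3 and 2 sibling reads. The levels were 32.5 and 23.6 CPM against 8.11 and 5.52 CPM, and the groups did not overlap. It rose by 2.01 ± 0.58 in log2 units (edgeR, Benjamini-Hochberg adjusted p = 0.00898), but with any single library left out the adjusted p lay between 0.0571 and 0.162. With gene plus repeat reads as the library size its adjusted p was 0.0901, and with DESeq2 it was 0.0908.

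The RNA sensor IFIH1 (ENSDARG00000018553) had 7 and 14 mutant reads against 3 and 2 sibling reads. At 7.59 and 15.0 CPM against 8.11 and 5.52 CPM the groups overlapped. Without the count filter its log2 fold change was 1.04 ± 0.63 (edgeR, Benjamini-Hochberg adjusted p = 0.337), so a difference was not detectable at this depth.

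The ubiquitin ligase gene trim25 (ENSDARG00000104396), whose mammalian product modifies an RNA sensor of the Rig-I type, ran against the other called members. It had 14 and 18 mutant reads against 17 and 11 sibling reads, and 15.2 and 19.3 CPM against 46.0 and 30.4 CPM. After TMM scaling it was lower, at -1.14 ± 0.43 in log2 units (edgeR, Benjamini-Hochberg adjusted p = 0.0332), whereas the raw reads of the groups overlap, under total-count scaling it stood at 0.55 (adjusted p = 0.295) and under ribosomal protein scaling it was higher, at 1.47 (adjusted p = 0.0156). Its call was also lost with DESeq2 (adjusted p = 0.551), without the count filter (adjusted p = 0.206) and with the replicate number as a block (adjusted p = 0.0561). Only without sibling replicate 2 did it stay under 0.05 among the fits with a library left out.

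The choice of scaling shifted all members together. The median of all tested genes was 0.48 with TMM, 2.17 with total-count scaling, 3.10 with ribosomal protein scaling and -0.23 with gene plus repeat reads as the library size. With these scalings 6, 6, 7 and 5 members were called higher, where 35.2%, 68.7%, 79.0% and 22.9% of all tested genes were. Members called lower numbered 1, 0, 0 and 1. Relative to that median, b2m lay at least 2.17 above it, parp14rs1 2.32 to 2.35, IRF7 1.50 to 1.54 and irf1b 1.23 to 1.26. By the same measure trim25 was at -1.63 to -1.62, below the median of all tested genes in each scaling. A scaling shifts the log2 fold changes of genes read in both groups almost alike. Distances to the median, here and for the pathway genes below, could therefore hardly change and are no separate check of a gene. For mxc the lower bound of the fold was between 6.82 with gene plus repeat reads and 70.9 with ribosomal protein scaling. For isg15 it was between 3.53 and 36.7. With the same scalings the bound was between 3.93 and 40.9 for uba7 and between 3.61 and 37.55 for traf3. It was between 1.93 and 20.0 for xaf1 and between 1.69 and 17.5 for tapbpl.

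**Figure D3:**
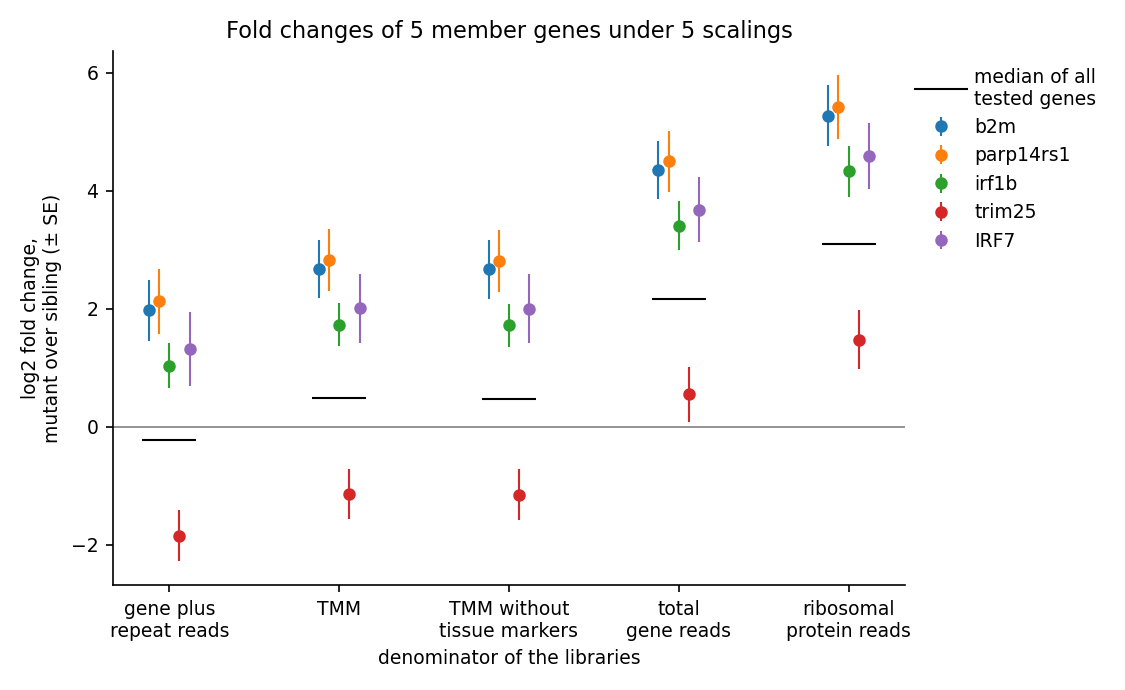
Log2 fold change, mutant over sibling, with its standard error, of the 5 tested members that had sibling reads, under 5 denominators of the libraries. Black bars are the median of all tested genes, and b2m, parp14rs1, irf1b and IRF7 lie above 0 and above the bar in each scaling, while trim25 lies below the bar in each and crosses 0. The distance of a gene to the bar is nearly fixed, since a scaling shifts these genes and the bar almost alike.

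Around the members, 5 lists of the same pathway were examined, in which 114 rows were found and 39 passed the count filter. Of these 39, 20 were higher, 6 lower and 13 did not pass, against 35.2% higher and 25.9% lower among all tested genes, with a median of 1.19 against 0.48. That median was 0.77 without mutant replicate 1 and 0.60 for the fit lacking mutant replicate 2, beside 0.29 and 0.32 over all genes tested in those fits. Without the count filter 10 of the 103 listed genes with a read were higher and 2 lower, where 6.45% and 6.13% of all genes were. Of all 114 rows, 49 had both mutant libraries above both sibling libraries and 20 the reverse. These counts are 43.0% and 17.5% of the rows, beside 28.8% and 16.8% of all 31953 gene rows. Rows without a read cannot separate, and reads were found in 103 of the 114 rows and in 23859 of the 31953. Empty rows therefore lower the shares of all gene rows more than those of the lists. By list, 38.9% of the 18 sensor and adaptor rows lay above in this way and 22.2% below. For the 16 rows of Jak, Stat and Irf factors the shares were 43.8% and 25%. They were 45.5% and 21.2% for the 33 antigen presentation rows and 25% and 0% for the 12 rows of receptors and interferons. Without sibling replicate 1 or 2 the median of the tested pathway genes was 1.09 or 0.92, beside 0.60 and 0.62 over all tested genes.

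**Figure D4:**
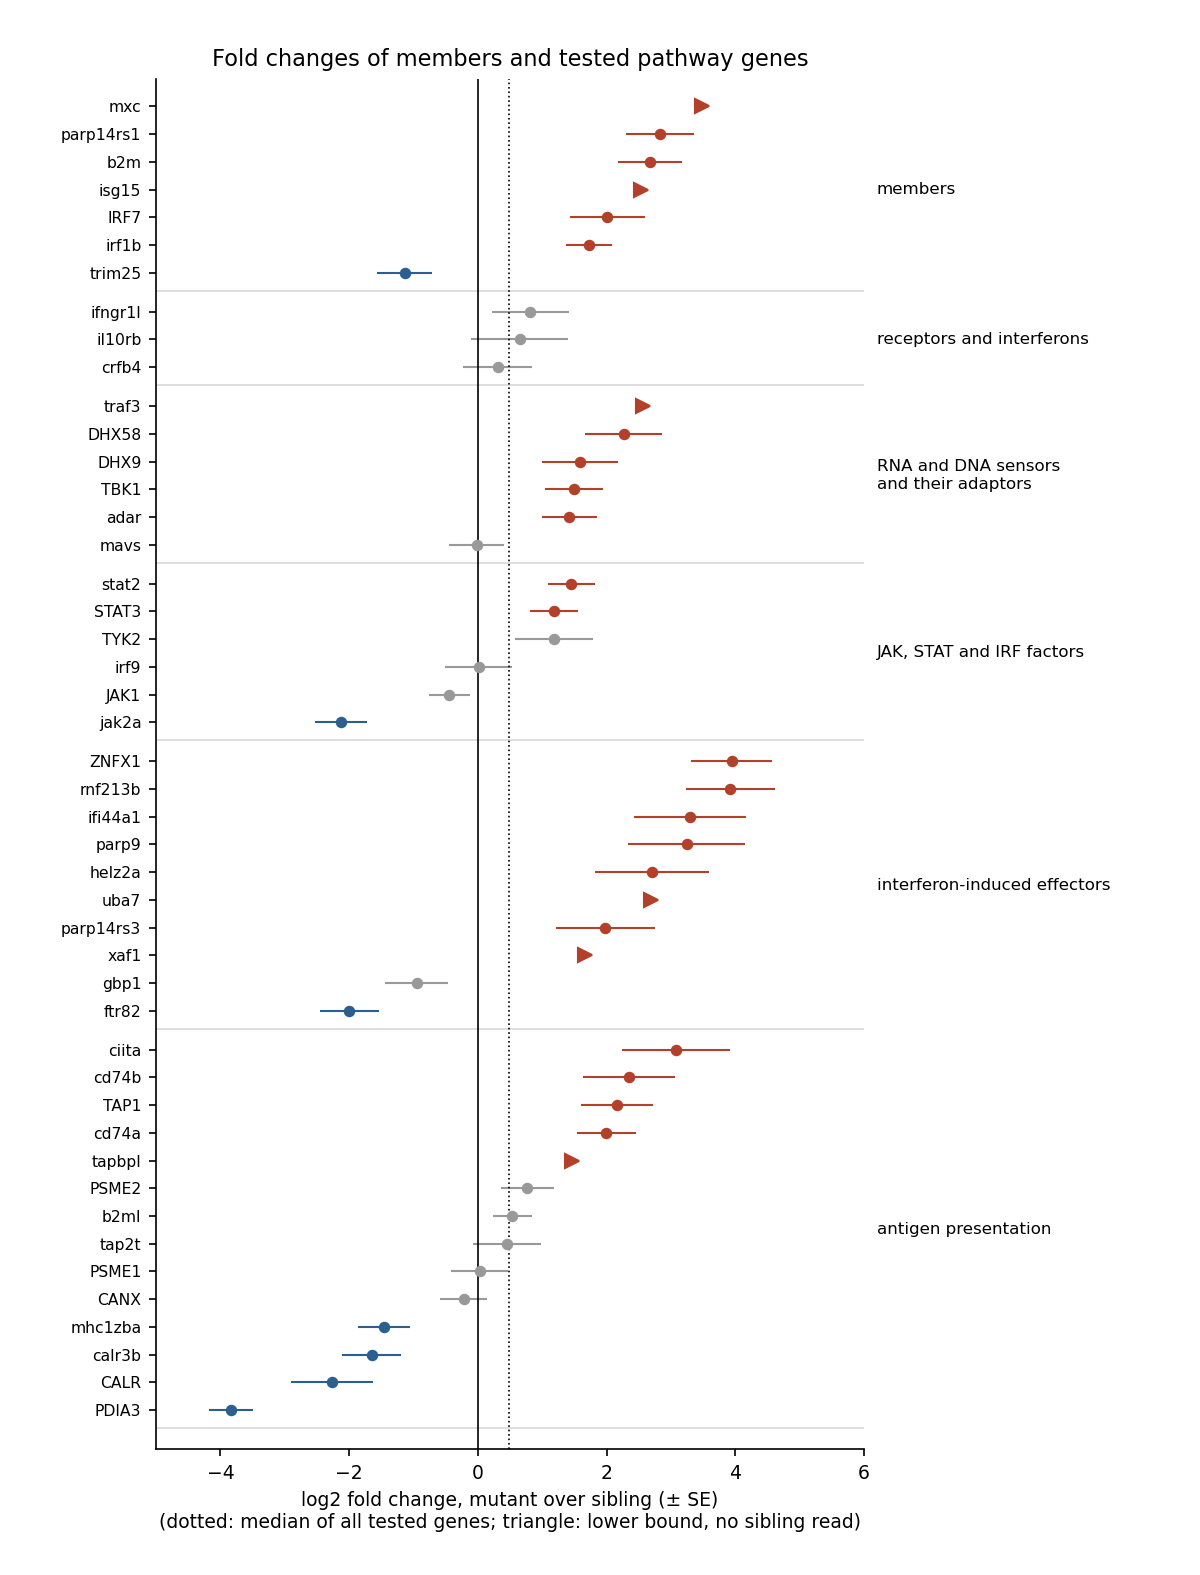
Log2 fold change, mutant over sibling, with its standard error, of the 7 tested members and the 39 tested genes of the 5 pathway lists. Red marks genes called higher, blue genes called lower and grey neither, triangles are lower bounds for genes with no sibling read, and the dotted line is the median of all tested genes at 0.48. Red symbols predominate among sensors and effectors, and antigen presentation holds both colours.

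Interferon transcripts themselves were near 0. The genes ifnphi2, ifnphi4 and ifng1 had no read in any library, which allows up to 3.25 and 3.22 CPM in the mutants and 8.11 and 8.28 CPM in the siblings. In ifnphi1 there were 2 and 0 mutant reads against 0 and 1 sibling reads, and in ifnphi3 a single read in mutant replicate 2. Of the 12 rows of interferons and receptors 3 were tested, of which 0 passed with edgeR and 0 had an unadjusted p under 0.05. With DESeq2 0 passed, and 1 of 8 had an unadjusted p under 0.05. All 3 were called higher with total-count and with ribosomal protein scaling, where 68.7% and 79.0% of all tested genes were. The receptor gene ifngr1, of the interferon gamma receptor, had 10 and 8 mutant reads against 0 and 0 sibling reads and did not pass the count filter (adjusted p = 0.0687 without it, edgeR with Benjamini-Hochberg adjustment). The related gene ifngr1l had 16 and 11 mutant reads against 2 and 4 sibling reads (log2 fold change 0.82 ± 0.60).

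Of the RNA and DNA sensors and their adaptors 5 of 6 tested genes rose and 0 fell, beside 35.2% and 25.9% of all tested genes. The 5 that rose had no or few sibling reads and passed the count filter only through the mutants. The count higher was 2 of 6 with gene plus repeat reads as the library size, where 22.9% of all tested genes were, 1 of 10 with DESeq2, where 12.5% were, and 3 of 18 without the count filter, where 6.45% were. Without mutant replicate 1 or 2 it was 0. The helicase DHX58, a relative of Ifih1 known as Lgp2, had 22 and 28 mutant reads against 2 and 2 sibling reads and rose by 2.26 ± 0.60 (edgeR, Benjamini-Hochberg adjusted p = 0.00546). The adaptor traf3 had 21 and 24 reads against 0 and 0 and was at least 5.92-fold higher. TBK1, the kinase that activates Irf factors, rose from 16.3 ± 7.48 to 46.4 ± 9.51 CPM (mean ± SD, n = 2). The RNA-editing enzyme adar rose by 1.42 ± 0.43 and the RNA helicase DHX9 by 1.59 ± 0.59 on the log2 scale. The mitochondrial adaptor mavs, at -0.02 ± 0.43, did not pass. With gene plus repeat reads as the library size, adar, TBK1 and DHX9 did not pass (adjusted p = 0.193, 0.176 and 0.234). With 1 library left out TBK1 passed in 0 of 4 fits. DHX58 and adar passed only without sibling replicate 2, DHX9 only without sibling replicate 1, and traf3 only without one or the other sibling library. With DESeq2 DHX58, adar, TBK1 and DHX9 did not pass, with adjusted p of 0.0734 to 0.178.

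Among Jak kinases, Stat and Irf factors 2 of 6 tested genes rose and 1 fell, which is near the 35.2% higher and 25.9% lower among all tested genes. The gene stat2, of type I interferon signalling, had 87 and 87 mutant reads against 15 and 10 sibling reads and rose by 1.45 ± 0.37 (edgeR, Benjamini-Hochberg adjusted p = 0.00407). STAT3, which carries cytokine signals of the interleukin-6 type, rose by 1.19 ± 0.38. The kinase gene jak2a was lower at -2.12 ± 0.40, yet under total-count scaling it stood at -0.44 and under ribosomal protein scaling at 0.49, passing in neither. Relative to the median of all tested genes it was at -2.61 to -2.60 in each scaling. With gene plus repeat reads stat2 was at 0.75 and STAT3 at 0.48, and neither passed, while relative to that median stat2 stayed at 0.97 to 0.98 and STAT3 at 0.70 to 0.73. Without mutant replicate 1 or 2, none of stat2, STAT3 and jak2a passed, and STAT3 did not pass without sibling replicate 1 either. STAT3 and jak2a were also not called with DESeq2 (adjusted p = 0.0893 and 0.0911). The factor gene irf9, whose product binds Stat2, was at 0.01 ± 0.52.

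Of the interferon-induced effectors 10 were tested, 8 rose and 1 fell, and 25 of the 35 rows were not tested. The 8 that rose had no or few sibling reads and passed the count filter only through the mutants. Among all tested genes 35.2% were higher and 25.9% lower. The median was 3.27, or 2.70 with bounds. It was 3.55 without mutant replicate 1, -0.07 without mutant replicate 2, 3.96 without sibling replicate 1 and 2.42 without sibling replicate 2. Over all tested genes the medians of these fits were 0.29, 0.32, 0.60 and 0.62. The set of effectors tested changed with the fit, at 9, 8, 13 and 14 genes. With DESeq2 3 of 17 were higher, where 12.5% of all genes were, and without the count filter 3 of 33, where 6.45% were. ZNFX1, an RNA-binding helicase-like protein, had 43 and 40 mutant reads against 1 and 1 sibling reads and rose by 3.94 ± 0.63 (edgeR, Benjamini-Hochberg adjusted p = 0.000151). It passed with any single library left out. The giant ubiquitin ligase gene rnf213b had 31 and 51 reads against 1 and 1 and rose by 3.92 ± 0.69 (adjusted p = 0.000355), and without sibling replicate 1 its adjusted p was 0.0557. The gene xaf1 had 13 and 11 reads against 0 and 0 and was at least 3.16-fold higher. It did not pass with DESeq2 (adjusted p = 0.0540) or without the count filter (adjusted p = 0.0548), nor without sibling replicate 1 (adjusted p = 0.0556). A fish-specific tripartite-motif gene, ftr82, was lower at -2.00 ± 0.46, and was at -0.29 with total-count scaling and at 0.65 with ribosomal protein scaling without passing. Relative to the median of all tested genes ftr82 was at -2.49 to -2.45. It did not pass with DESeq2 (adjusted p = 0.160) or without mutant replicate 1 or 2 (adjusted p = 0.132 and 0.0888). Some well-known effectors had few reads in the mutants, as rsad2 with 1 and 4 and cmpk2 with 8 and 0, against 0 in siblings. Others stood lower without a call, as gbp1 at -0.95 ± 0.49 and, without the count filter, gbp2 at -2.17 ± 0.65. Both mutant libraries lay above both sibling libraries in 17 of the 35 rows and below them in 5. These are 48.6% and 14.3%, beside 28.8% and 16.8% of all gene rows. Of the 35 rows 33 had a read, beside 23859 of the 31953 gene rows, so empty rows lower the shares of all gene rows more.

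Antigen presentation genes moved in both directions, with 5 of 14 tested higher and 4 lower and a median of 0.50. These counts and this median are near those of all tested genes, where 35.2% rose, 25.9% fell and the median was 0.48. The list's median was 0.08 without mutant replicate 1 and -0.21 with gene plus repeat reads, beside 0.29 and -0.23 over all tested genes. It was 0.43 without mutant replicate 2, 0.57 without sibling replicate 1 and 0.68 without sibling replicate 2, beside 0.32, 0.60 and 0.62. TAP1, a subunit of the peptide transporter of the class I pathway, had 26 and 32 mutant reads against 2 and 3 sibling reads and rose by 2.16 ± 0.56 (edgeR, Benjamini-Hochberg adjusted p = 0.00494). The tapasin-like gene tapbpl had 10 and 11 reads against 0 and 0 and was at least 2.76-fold higher. Of the class II pathway, the invariant chain gene cd74a rose from 13.7 ± 7.93 to 55.0 ± 3.47 CPM (mean ± SD, n = 2). The class II chain genes mhc2dab, mhc2dbb and mhc2d8.46a had no read in any library. The class II transactivator gene ciita had 11 and 13 mutant reads against 1 and 0 sibling reads and rose by 3.08 ± 0.84. The call of ciita was lost with the replicate number as a block (adjusted p = 0.0707). With DESeq2 TAP1, tapbpl and ciita did not pass (adjusted p = 0.0611, 0.0754 and 0.167). TAP1 did not pass with gene plus repeat reads (adjusted p = 0.0506) either, nor tapbpl and ciita without the count filter (adjusted p = 0.0575 and 0.0743). With 1 library left out TAP1 passed only without sibling replicate 2 and cd74a only without one or the other sibling library, and tapbpl and ciita, tested in 2 such fits, passed in 0.

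The antigen presentation genes that were lower included folding factors of the endoplasmic reticulum, which all secretory cells use. PDIA3, a disulphide isomerase, had 65 and 73 mutant reads against 352 and 424 sibling reads and fell by 3.83 ± 0.34 (edgeR, Benjamini-Hochberg adjusted p = 9.56e-07). The calreticulin gene calr3b was lower at -1.65 ± 0.46, and was at 0.11 with total-count scaling and higher, at 1.06, with ribosomal protein scaling. The class I heavy chain gene mhc1zba had 46 and 39 mutant reads against 66 and 27 sibling reads. It was lower at -1.46 ± 0.41 after TMM scaling, and was at 0.18 with total-count scaling and at 1.09 with ribosomal protein scaling without passing. Relative to the median of all tested genes calr3b was at -2.15 to -2.04 and mhc1zba at -2.00 to -1.92 over the scalings. The sibling libraries were unlike each other for calr3b, with 20 and 58 reads. Without sibling replicate 2 calr3b was at -0.64, and without sibling replicate 1 mhc1zba was at -0.66, and neither passed. Neither passed without mutant replicate 1 or 2 or with DESeq2 (adjusted p = 0.221 for mhc1zba and 0.191 for calr3b).

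As a summed share of gene reads, leukocyte markers did not separate the groups, at 0.00507% and 0.00797% in mutants against 0.0106% and 0.00283% in siblings. On the TMM scale used for the member levels, both sibling libraries stood above both mutant libraries in this sum. The list held 29 and 45 mutant reads against 65 and 23 sibling reads, from 20 rows found. The pan-leukocyte gene ptprc had 0 and 3 mutant reads against 2 and 0 sibling reads, and ikzf1 and cd8a had no read. The macrophage receptor csf1ra, also active in pigment cells, was the only marker of this list tested, and it was higher with 17 and 24 reads against 0 and 2 (log2 fold change 2.93 ± 0.82). Other macrophage and neutrophil markers did not pass the filter, and some had more reads in the siblings summed. The MFAP4 row ENSDARG00000090557 had 1 and 0 mutant reads against 38 and 13 sibling reads and was lower without the count filter (log2 fold change -6.27 ± 1.09, edgeR, Benjamini-Hochberg adjusted p = 0.0413), marco had 0 and 0 against 1 and 2, and the lysozyme gene lyz had 3 and 4 against 19 and 0. With DESeq2 0 of 4 tested markers of the list were higher and 1 was lower, where 12.5% and 12.1% of all tested genes were. Without the count filter 0 of 13 were higher and 1 was lower, where 6.45% and 6.13% of all genes were. Markers of other tissues stood apart more. Skin and ionocyte markers were higher in 11 of 11 tested, with a median of 6.12, or 4.23 with bounds, and skeletal muscle markers in 11 of 11, with a median of 6.18. Hepatocyte markers were lower in 14 of 15, with a median of -8.26. The part of these tissue differences in the values of the interferon genes was not tested.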

How the data were processed

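The authors deposited raw counts of reads per gene and per repeat name, in 1 table each, and per the file headers each library has its own column. The names of the sibling columns begin with ABNYU and those of the mutant columns do not. The headers do not say what this prefix stands for. TopHat2, HTSeq and DESeq2 and the build GRCz10 are named without versions or roles, per the submitters' processing notes. Settings, use of strand and handling of multiply mapped reads are not stated in the labels or headers, so reads of overlapping or antisense genes and of close paralogs cannot be separated. Of 31953 identifiers 26121 had a symbol. Genomic positions and sequences were not analysed here.

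Genes were tested with edgeR 4.0.16 in R 4.3.3 (robust quasi-likelihood fit, default count filter by group, TMM scaling), with a Benjamini-Hochberg adjusted p under 0.05 over all tested genes as the threshold. The standard error is the log2 fold change divided by the root of the F statistic. A fold against 0 reads is a bound against 3 counts over the group, after TMM scaling unless another scaling is named. Intervals and floors cover counting error only. Alternatives were 4 other scalings, DESeq2 1.42.0, no filter, a replicate block and each library left out, where the lone library of a group is assumed to vary like the other group. The groups did not vary alike. The chi-square per degree of freedom was 1.18 between the mutant libraries and 14.9 between the sibling libraries. Ribosomal protein scaling used 83 genes. The labels do not tie replicate numbers to clutches, so the p-values reflect only how far libraries of a group differ, which may be technical.

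The members and lists were chosen with earlier results of these data known. Genes named are the members, up to 5 genes per list with the smallest p among those called whose groups do not overlap, and up to 3 in the rarer direction. Some results are not reported here. Genes given beside these were chosen after their values were seen.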

Additional observations from a re-analysis of the deposited data

Results flagged for a closer look

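Repeat reads, which the comparisons above use only as an alternative library size, were more numerous per gene read in the mutants. Each gene read came with 16.9 and 18.7 repeat reads in mutants against 3.44 and 1.98 in siblings, so a signal in a table outside the main measurement stood above the level in the control libraries. No explanation of this ratio was tested.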

How the results depend on the processing

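Limits are 2 libraries per group with 564941 to 812167 gene reads each, and a tissue makeup that coincides with the groups. Members called higher numbered 1 to 6 over all fits except ribosomal protein scaling, where there were 7. With a library left out they numbered 1 to 5, and members called lower 0 to 1. Members called lower numbered 0 with total-count scaling, ribosomal protein scaling, DESeq2, no count filter and the replicate block. Over all genes, against 2861 higher and 2104 lower, total-count scaling gave 5585 and 1015, ribosomal protein scaling 6425 and 656, gene plus repeat reads 1859 and 2712, DESeq2 1597 and 1545 and no count filter 1540 and 1462. With a library left out there were 340 to 2405 higher and 924 to 2227 lower. Pathway genes, 20 higher and 6 lower, numbered 32 and 1 with total-count scaling, 34 and 1 with ribosomal protein scaling, 11 and 8 with gene plus repeat reads, 6 and 1 with DESeq2 and 10 and 2 with no count filter. With a library left out they numbered 2 to 13 and 1 to 6. Among the named genes 15 calls were lost with DESeq2, 9 with no count filter, 7 with gene plus repeat reads, 20 without mutant replicate 1, 17 without mutant replicate 2, 12 without sibling replicate 1 and 6 without sibling replicate 2. A fit in which a named gene was not tested is not counted as a lost call. This applies to xaf1, tapbpl and ciita, each tested in 2 of the fits with a library left out. The cause of these shifts was not tested. Reversed signs occurred with total-count scaling for trim25 (0.55), mhc1zba (0.18) and calr3b (0.11), and with ribosomal protein scaling for trim25 (1.47), jak2a (0.49), ftr82 (0.65), mhc1zba (1.09) and calr3b (1.06). These scalings put the median of all tested genes at 2.17 and 3.10. They shift genes read in both groups almost alike, so each of these genes stayed below the median as with TMM. Leaving the tissue markers out of the TMM factors changed the call of 0 of 27 named genes. It moved the median of all tested genes only from 0.48 to 0.47, so it is no test of the tissue difference. Same-numbered libraries did not deviate together (correlation 0.04 across genes). This cannot decide whether the numbers pair them, since the mutant libraries differed little beyond counting error (chi-square per degree of freedom 1.18). Pairing stays unknown. The replicate block gave 2518 higher and 2051 lower genes and ended the calls of trim25 and ciita among the named genes.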
